A study of Mus musculus with 2 samples.

Results

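The cells described here are mononuclear phagocytes of mouse kidney tumours that carried transcripts of an interferon response. They were chosen by transcript counts: a cell barcode with at least 3000 unique molecular identifiers (UMIs, counted RNA molecules), at most 20% mitochondrial UMIs, at least 1 UMI of the macrophage growth factor receptor gene Csf1r, at least 10 UMIs of Rsad2, Ifit1, Ifit2 and Ifit3 together, and at most 3 UMIs of the proliferation genes Mki67 and Top2a. This left 216 cells of the 19451 barcodes, 102 in the library labelled SMYD3 knockdown and 114 in the library labelled WT. They were set beside 9242 comparison cells, 4517 in the knockdown library and 4725 in the WT library, which met the same limits but held at most 2 UMIs of the 4 genes. Another 328 cells, 167 in the knockdown and 161 in the WT library, held 3 to 9 UMIs and stood between.

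The tumours grew from RENCA, a kidney cancer cell line of BALB/c mice, placed orthotopically in BALB/c hosts. In the group labelled SMYD3 knockdown the engrafted line carried a knockdown of SMYD3, a lysine methyltransferase, and the group labelled WT was its control. According to the series design, cells were sorted for CD45, carried by leukocytes, whereas the sample labels name an epithelial cell type. Each label has 1 droplet library, with 10186 barcodes for the knockdown and 9265 for the WT library, and the number of mice behind each, the clone and the construct are not given in the sources used here. Label, library and animal therefore cannot be told apart, no test across libraries exists, and intervals below are 95% intervals that cover counting error alone. The knockdown was made in the engrafted line, and the members carry markers of host phagocytes, so Smyd3 in them does not check the knockdown: it had 7 UMIs in the knockdown members and 7 in the WT members.

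Type I interferons are secreted when cells sense foreign or misplaced nucleic acid, and interferon gamma is secreted by activated T and NK cells. Their receptors activate STAT transcription factors, which bind interferon-stimulated response elements in promoters and turn on a large set of genes of antiviral defence, antigen presentation and chemokine secretion. In tumours, macrophages and monocytes with such a program are a recurrent state, known for the T cell attracting chemokines CXCL9 and CXCL10.

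The core of an interferon-stimulated response element is a tandem repeat of GAAA, so a motif of GAAA, any 2 bases and GAAA was looked for on both strands of RefSeq promoters of build GRCm38.p6, from 250 bases before to 50 after each gene's start. The stretches below show the matches of genes that lead the members' profile, with capitals for the matched bases, written 5′ to 3′ along the gene's strand. Capitals with TTTC are the motif read on the opposite strand. The reference is another strain than BALB/c.
Rsad2: ccaacTTTCATTTTCagaaa
Ifit1: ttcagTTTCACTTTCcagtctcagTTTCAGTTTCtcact
Ifit3: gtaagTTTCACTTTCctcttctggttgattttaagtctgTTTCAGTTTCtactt
Isg15: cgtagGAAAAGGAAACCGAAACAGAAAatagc
Cxcl10: ctttgGAAAGTGAAActtac
Gbp5: tgtagTTTCAATTTCagttt
The Rsad2 stretch lies at chr12:26456558-26456577 (minus strand), the Ifit1 stretch at chr19:34640780-34640818 (plus strand), the Ifit3 stretch at chr19:34583368-34583421 (plus strand), the Isg15 stretch at chr4:156200870-156200901 (minus strand), the Cxcl10 stretch at chr5:92349088-92349107 (minus strand) and the Gbp5 stretch at chr3:142496764-142496783 (plus strand). Isg15 holds 3 matches that overlap each other, Ifit1 and Ifit3 hold 2 apart from each other, and the others hold 1. All of these matches lie before the gene's start in RefSeq. In GENCODE vM21 Gbp5 begins at 142493978, so by that annotation its match lies inside the gene.
Of the 20 genes with the largest excess in members in both libraries, 16 are in the promoter table and 10 of them (62.5%) hold a match. The 20 include the 4 genes by which the cells were chosen, and Rsad2, Ifit1 and Ifit3 are among the 10. The share is thus a description of a list drawn from these data. The motif occurs in 1131 of all 32851 windows (3.44%), in 264 of 6130 genes measured in both libraries (4.31%), and in none of the 7 promoters among the 10 genes with the largest deficit. Among gene families, 10 of 11 promoters of the GBP and IRG GTPases (90.9%), 9 of 18 of the nucleic acid sensors (50%) and 14 of 33 of the antiviral effectors (42.4%) hold it, against 5 of 19 of the MHC class I genes (26.3%) and 0 of 14 of the cholesterol synthesis genes. Ifit2, Cmpk2, Ifi47, Ifi44, Oasl1 and Herc6 have a promoter in the table without these letters, and Mx1, Iigp1, Cxcl11 and Usp18 were not in it.

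Macrophage markers were present in the members, as the label says. Every member, 102 of 102 in the knockdown and 114 of 114 in the WT library, had at least 3 UMIs of a 12-gene macrophage list, which includes Csf1r and so is partly set by the choice of cells. Its summed level was 21351 CPM (UMIs of a gene per 1000000 UMIs of the summed cells) in members against 23348 CPM in comparison cells of the knockdown library, and 20451 CPM in members against 24428 CPM in comparison cells of the WT library. C1qa, a complement chain of tissue macrophages that the choice did not use, was detected in 93.1% of knockdown and 95.6% of WT members. The 4 marker genes of the label were all present: Mx1, the only one of them that the rule did not count, had UMIs in 53.9% of knockdown and 71.9% of WT members, against 3.76% of knockdown and 3.79% of WT comparison cells. B cell, mast cell, fibroblast and erythroid lists reached 3 UMIs in 0 members of either library. T cell and NK cell lists each reached 3 UMIs in 1 knockdown and 0 WT members, a list of tumour epithelial genes in 3 knockdown and 4 WT members, and an endothelial list in 5 knockdown and 4 WT members. Within the endothelial list Kdr, a growth factor receptor, carried the signal (42 UMIs in knockdown and 28 in WT members), while Emcn and Cldn5 were at 0. Of 9 markers of plasmacytoid dendritic cells, the specialised producers of type I interferon, 4 were at 0 UMIs in knockdown and 2 in WT members, and Siglech had 1 UMI in each. The list reached 3 UMIs in 35 knockdown (34.3%) and 36 WT members (31.6%), against 21.1% of knockdown and 21.5% of WT comparison cells, and in WT members 218 UMIs of it were of Tcf4, a transcription factor that other cells also express. A list of 8 genes of cDC1 dendritic cells reached 3 UMIs in 93.1% of knockdown and 90.4% of WT members, against 81.0% of knockdown and 79.9% of WT comparison cells. Of its measured genes 2 of 5 were at least 1.5-fold higher in knockdown and 4 of 7 in WT members than in comparison cells, with 0 lower, beside 6.13% and 6.09% of all measured genes. Most of the list's UMIs were of Irf8 and Naaa. Xcr1, the chemokine receptor that defines these cells, had UMIs in 2.94% of knockdown and 2.63% of WT members.

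The libraries held 95803300 UMIs (knockdown) and 91523800 UMIs (WT). Members were somewhat deeper than comparison cells, with a median of 14318 UMIs (3846 to 35615) in knockdown and 13034.5 (4921 to 32819) in WT members, against 12122 in knockdown and 11537 in WT comparison cells. Their median mitochondrial share was 1.10% in the knockdown and 1.20% in the WT library. No member shared its barcode sequence with a barcode of the other library, although 22 sequences occur in both. Doublet scores marked 19 knockdown members (18.6%) and 9 WT members (7.89%), against 8.83% of knockdown and 8.53% of WT comparison cells, and the marked cells were kept. In the knockdown library the proliferation limit had left out 17 cells that met the other limits and the UMI minimum 2, in the WT library 16 and 1, and the mitochondrial limit left out 0 in either. Outside the rule, 69 of 3527 cells without a Csf1r UMI in the knockdown library and 69 of 2593 in the WT library also had at least 10 UMIs of the 4 genes.

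Members made up 2.13% (1.74 to 2.58) of the 4786 Csf1r-positive cells within the limits in the knockdown library and 2.28% (1.88 to 2.73) of the 5000 in the WT library. The difference was -0.149 percentage points with a 95% interval of -0.734 to 0.439, so no difference in share was detectable at this depth. The bulk of Csf1r-positive cells had no UMI of the 4 genes at all: 4028 cells in the knockdown and 4219 in the WT library. Cells with UMIs were rarer, and no range between the rest and the members was empty. The knockdown library had 90 cells at 3 to 4 UMIs, 77 at 5 to 9, 46 at 10 to 19 and 34 at 20 to 49, and the WT library had 86, 75, 44 and 31 cells in these ranges. The uppermost range, 50 or more UMIs, held 22 knockdown cells (0.460%, 0.288 to 0.695) and 39 WT cells (0.780%, 0.555 to 1.06).

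**Figure D1:**
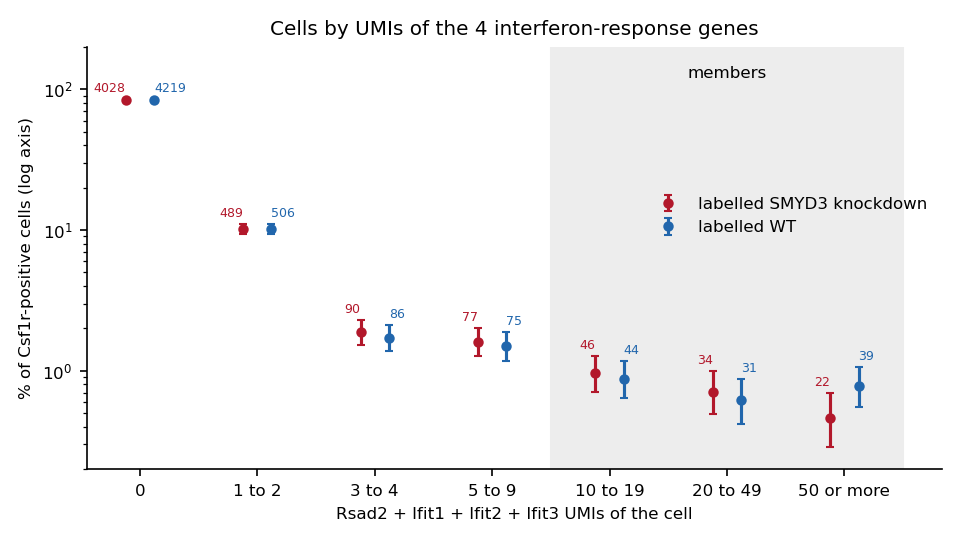
Cells by their UMIs of Rsad2, Ifit1, Ifit2 and Ifit3 (x axis), as a percentage of Csf1r-positive cells within the limits on a log axis (y axis). Red points are the library labelled SMYD3 knockdown, blue points the library labelled WT, bars are 95% binomial intervals and the numbers are cells. The members, on grey, are the end of a continuous tail, and the libraries differ most at 50 or more UMIs, with 22 knockdown and 39 WT cells.

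The 10-UMI limit lay within a continuous range. The 21 knockdown and 17 WT members just inside it (10 to 12 UMIs) were set beside the 31 knockdown and 33 WT cells just outside it (7 to 9 UMIs). Isg15 had 370 CPM inside against 217 CPM outside in the knockdown library, and 198 CPM inside against 284 CPM outside in the WT library. Usp18 had 37.0 CPM inside against 35.6 CPM outside in the knockdown library, and 50.6 CPM against 35.9 CPM in the WT library. Mx1 had 29.0 CPM inside against 17.8 CPM outside in the knockdown library, and 78.2 CPM against 47.9 CPM in the WT library. Cxcl10 had 137 CPM inside against 229 CPM outside in the knockdown library, and 685 CPM against 411 CPM in the WT library. Isg15 and Cxcl10 thus lay on different sides in the 2 libraries. For Cxcl10 this rests on 1 WT member, which held 110 of the 149 UMIs inside the limit.

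The breadth of the response varied from member to member. The number of rule genes in a member is partly set by the choice of cells, which used their sum. In the knockdown library 51 members (50%) had UMIs of all 4 genes of the rule and 9 had UMIs of only 1, and in the WT library 70 (61.4%) had all 4 and 13 had 1. The 4-gene sum had a median of 20.5 UMIs (10 to 333) in knockdown and 29.5 UMIs (10 to 239) in WT members. Of 41 other antiviral effector genes, the median knockdown member had 21 detected (7 to 36) and the median WT member 24 (7 to 34), against 10 in comparison cells of either library. After every cell was thinned to 3000 UMIs the medians were 10 genes in knockdown and 12 in WT members and 5 in both sets of comparison cells. The ranges overlapped at that depth. The lower quartile of members was 7 genes (knockdown) and 8.25 (WT), and the upper quartile of comparison cells 7 and 6. Of 19 interferon-inducible GTPase genes, thinned members had a median of 3 in either library and thinned comparison cells 0.

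Members and comparison cells were then compared gene by gene, each library by itself, on CPM of the summed UMIs. The choice of members rests on this contrast, so its values describe the members and support nothing further. A gene was measured where either group had at least 20 UMIs and 10 CPM, and differences are on the log2 scale of CPM plus 5, which understates the change of low genes. Of 7865 genes measured in each library, 482 (6.13%) were at least 1.5-fold higher and 367 (4.67%) at least 1.5-fold lower in knockdown members, and 479 (6.09%) were higher and 384 (4.88%) lower in WT members. Of 7662 genes measured in both libraries, 335 (4.37%) were higher in both and 96 (1.25%) lower in both. The 335 were 69.5% of the knockdown and 69.9% of the WT higher list, and the 96 were 26.2% and 25% of the lower lists. The median over all genes was -0.09 in knockdown and -0.10 in WT members, and with median-ratio scaling the counts were 597 higher and 245 lower in knockdown members and 619 higher and 229 lower in WT members.

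**Figure D2:**
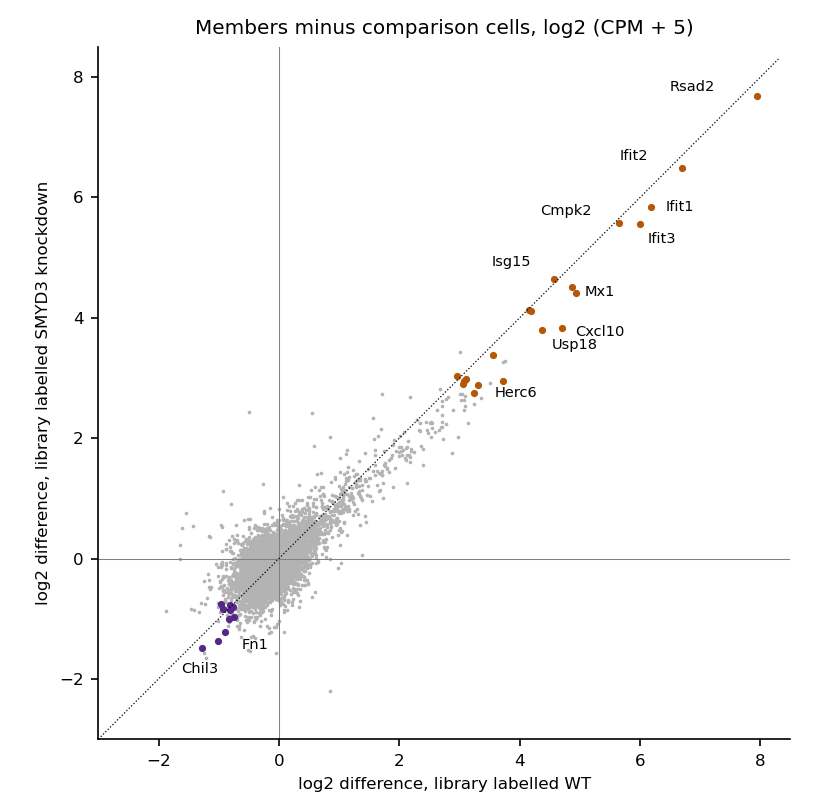
Each point is 1 of the 7662 genes measured in both libraries, with the difference of members minus comparison cells on the log2 (CPM + 5) scale in the WT library (x axis) and the knockdown library (y axis). Orange marks the 20 named genes highest in members, purple the 10 lowest, the dotted line equal differences. The orange genes reach 7.69 (knockdown) and 7.95 (WT) at Rsad2, far from the grey cloud, and the purple genes reach -1.49 and -1.28 at Chil3.

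The genes of the rule were high by its construction. Rsad2, which encodes viperin, a radical SAM enzyme that makes a chain-terminating nucleotide, had 1614 CPM in members against 2.82 CPM in comparison cells of the knockdown library, and 2099.6 CPM in members against 3.53 CPM in comparison cells of the WT library. Ifit1, Ifit2 and Ifit3, whose products bind viral RNA, had 481, 577 and 364 CPM in knockdown members and 521, 720.4 and 491 CPM in WT members, against 1.49 to 3.47 CPM in comparison cells.

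Outside the rule the antiviral effectors were higher almost as a body: 32 of 39 measured in the knockdown library and 32 of 38 in the WT library were at least 1.5-fold higher, with list medians of 1.60 (knockdown) and 2.07 (WT) on the log2 scale. The share over all genes was 6.13% and 6.09%, as given above, and it belongs beside every list of members against comparison cells below. Cmpk2 had 312 CPM in members against 1.65 CPM in comparison cells of the knockdown library, and 334 CPM in members against 1.71 CPM in comparison cells of the WT library. Cmpk2 is a mitochondrial nucleotide kinase whose gene (chromosome 12, 26469204 to 26479837, GENCODE vM21 on GRCm38) neighbours Rsad2 (26442746 to 26456452). Mx1 stood in the knockdown library at 190.4 CPM in members against 3.59 CPM in comparison cells, and in the WT library at 251 CPM in members against 3.75 CPM in comparison cells. Mx1 is a dynamin-like GTPase that blocks influenza viruses, and most inbred mouse strains carry a defective copy. The level of Ifi44 was 404 CPM in members against 48.2 CPM in comparison cells (knockdown library), and 572 CPM in members against 38.8 CPM in comparison cells (WT library). Oasl1 reached 396 CPM in knockdown members against 48.7 CPM in knockdown comparison cells, and 419 CPM in WT members against 46.0 CPM in WT comparison cells. Oasl1 represses translation of the interferon regulator Irf7 in mice. Ifi44 is an interferon-induced protein of cytoplasm and its difference was larger in WT members (3.72) than in knockdown members (2.94). Phf11b, of a family of PHD finger genes that are close copies, had 154 CPM in members against 14.4 CPM in comparison cells (knockdown library) and 137 CPM in members against 13.4 CPM in comparison cells (WT library). Bst2, or tetherin, which holds budding virus at the cell surface, was abundant in both cell groups: 476 CPM in members against 171 CPM in comparison cells of the knockdown library, and 425 CPM in members against 140.0 CPM in comparison cells of the WT library. Not all of the list was high. Ifitm1 was lower in members (differences -0.83 in knockdown and -0.90 in WT members), and Ifitm2 (-0.20 in knockdown and -0.20 in WT members) stayed under 1.5-fold.

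The ISG15 system attaches a ubiquitin-like protein to others during infection, and TRIM proteins are ubiquitin ligases of antiviral defence. Of their 15 measured genes, 14 were higher in knockdown members (median 1.67) and 15 in WT members (median 1.82). For Isg15 the knockdown library gave 946 CPM in members and 33.0 CPM in comparison cells, and the WT library 758 CPM in members and 27.2 CPM in comparison cells. Isg15, the modifier itself, had UMIs in 93.1% of knockdown and 92.1% of WT members, against 20.7% of knockdown and 16.7% of WT comparison cells. Usp18 had 150 CPM in members against 6.17 CPM in comparison cells of the knockdown library, and 202 CPM in members against 5.07 CPM in comparison cells of the WT library. Usp18 removes ISG15 and also shuts off the type I interferon receptor. Herc6 stood in the knockdown library at 95.5 CPM in members against 8.61 CPM in comparison cells, and in the WT library at 128 CPM in members against 8.46 CPM in comparison cells. Herc6 is the mouse ligase that attaches ISG15. Among negative regulators, Socs1 was also higher (1.76 in knockdown and 2.00 in WT members), whereas Socs3, an inhibitor of IL-6 type signals, had differences of -0.45 in knockdown and -0.62 in WT members. All 11 measured PARP and Schlafen genes were higher in each library (medians 1.73 in knockdown and 1.92 in WT members). Slfn5, of the Schlafen family that restrains growth and viral replication, had 537 CPM in members against 93.4 CPM in comparison cells of the knockdown library, and 735 CPM in members against 82.4 CPM in comparison cells of the WT library.

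Guanylate-binding proteins (GBPs) and immunity-related GTPases (IRGs) attack the vacuoles of intracellular parasites and bacteria, and many of them answer best to interferon gamma. All measured ones were higher in members: 13 of 13 in the knockdown library (median 2.67) and 12 of 12 in the WT library (median 2.94). The level of Iigp1 was 236 CPM in members against 6.36 CPM in comparison cells (knockdown library), and 315 CPM in members against 5.50 CPM in comparison cells (WT library). Gbp2b reached 176 CPM in knockdown members against 5.38 CPM in knockdown comparison cells, and 213 CPM in WT members against 7.22 CPM in WT comparison cells. Gbp2b and Gbp2 are close copies, and the sources used here do not say how the counting divided reads between such copies (the same holds for Ifit3, Ifit1, Phf11b, Ifi214, Lyz1 and Ms4a4c). Gbp2 had 61.2 CPM in members against 3.38 CPM in comparison cells (knockdown library) and 81.6 CPM in members against 5.07 CPM in comparison cells (WT library). For Gbp5 the knockdown library gave 81.4 CPM in members and 3.28 CPM in comparison cells, and the WT library 92.2 CPM in members and 3.25 CPM in comparison cells. Ifi47 had 212 CPM in members against 23.1 CPM in comparison cells of the knockdown library, and 227 CPM in members against 22.5 CPM in comparison cells of the WT library. Ifi47, an IRG, was widespread, with UMIs in 74.5% of knockdown and 75.4% of WT members. Of 10 measured genes known for a preference for interferon gamma, 8 were higher in knockdown and 9 in WT members. The exceptions were Cd74, the MHC class II chaperone (-0.17 in knockdown and 0.06 in WT members), and in knockdown members Ciita, the class II master regulator (0.19 in knockdown and 0.60 in WT members).

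Among nucleic acid sensors, 14 of 22 measured genes were higher in each library and 0 were lower, with medians of 1.45 in knockdown and 1.65 in WT members. Ifih1 stood in the knockdown library at 225 CPM in members against 27.8 CPM in comparison cells, and in the WT library at 189 CPM in members against 25.2 CPM in comparison cells. Ifih1 encodes MDA5, a sensor of double-stranded RNA. The level of Zbp1 was 117 CPM in members against 20.9 CPM in comparison cells (knockdown library), and 147 CPM in members against 17.1 CPM in comparison cells (WT library). Zbp1 senses Z-form nucleic acid and can start necroptosis. Cgas reached 50.8 CPM in knockdown members against 22.3 CPM in knockdown comparison cells, and 46.1 CPM in WT members against 21.8 CPM in WT comparison cells. Cgas is the DNA sensor that makes cyclic dinucleotides for STING. Ifi214, of the PYHIN family of DNA-binding proteins, had 61.2 CPM in members against 4.86 CPM in comparison cells (knockdown library) and 87.8 CPM in members against 4.83 CPM in comparison cells (WT library). The adaptors differed little: Sting1 by -0.03 in knockdown and 0.24 in WT members, and Mavs by -0.27 in knockdown and -0.02 in WT members.

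The interferon receptors did not share the excess. Of 5 measured genes 0 were at least 1.5-fold higher in either library, with medians of 0.09 in knockdown and -0.08 in WT members. Ifnar1, a chain of the type I receptor, had 109.6 CPM in members against 84.3 CPM in comparison cells of the knockdown library, and 80.3 CPM in members against 84.1 CPM in comparison cells of the WT library. Ifngr1, of the gamma receptor, differed by -0.33 in knockdown and -0.59 in WT members. Downstream of the receptors, 3 of 7 transducers were higher in each library, beside 6.13% (knockdown) and 6.09% (WT) of all measured genes. Among them was Stat2, a transcription factor of type I interferon signalling. For Stat2 the knockdown library gave 163 CPM in members and 33.3 CPM in comparison cells, and the WT library 196 CPM in members and 35.1 CPM in comparison cells. Irf9, its DNA-binding partner, had smaller differences of 0.59 in knockdown and 0.73 in WT members. The kinases Jak1 (-0.05 in knockdown and -0.07 in WT members) and Tyk2 (0.21 in knockdown and -0.03 in WT members) stayed near 0. Among interferon regulatory factors, Irf7, which amplifies type I interferon production, had 223 CPM in members against 31.5 CPM in comparison cells (knockdown library) and 233 CPM in members against 29.7 CPM in comparison cells (WT library). Irf1 differed by 1.51 in knockdown and 1.79 in WT members, and Irf3, which is activated by phosphorylation, by -0.36 in knockdown and -0.41 in WT members.

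Of 21 interferon ligand genes in the matrix, only Ifnb1, interferon beta, reached the level to be measured. It had 61 UMIs in 15 of 102 knockdown members (37.3 CPM, 28.6 to 48.0) and 23 UMIs in 4 of 114 WT members (14.3 CPM, 9.08 to 21.5). Comparison cells had 1.34 CPM in the knockdown and 0.917 CPM in the WT library, with UMIs in 0.531% and 0.550% of these cells. Members held 24.4% of all Ifnb1 UMIs of the knockdown library and 17.8% of those of the WT library. The UMIs were not spread evenly: in the WT library 1 member had 15 of the 23 UMIs, and the leading knockdown member had 12 of 61. After thinning to 3000 UMIs, 7.84% of knockdown and 1.75% of WT members kept an Ifnb1 UMI, against 0.310% of knockdown and 0.233% of WT comparison cells. Of the 15 knockdown members with Ifnb1, 5 had no Cxcl10 UMI. Ifng had UMIs in 0 of 102 knockdown and 0 of 114 WT members, which, at 3 counts, allows shares of cells with a UMI of up to 2.94% and 2.63% and sets no limit on cells that express the gene, while the libraries held 77 (knockdown) and 188 (WT) UMIs of it, 68.8% and 76.1% of them in cells without Csf1r.

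The chemokines that recruit T cells through CXCR3 were uneven from cell to cell. Of 8 interferon-induced chemokines 5 were higher in knockdown members (median 1.46) and 4 in WT members (median 1.74), with 0 lower in either. Cxcl10 had 862 CPM in members against 55.8 CPM in comparison cells of the knockdown library, and 1418 CPM in members against 49.5 CPM in comparison cells of the WT library. UMIs of Cxcl10 were in 57.8% of knockdown and 54.4% of WT members, against 11.8% of knockdown and 10.5% of WT comparison cells. After thinning the shares were 43.1% of members against 6.24% of comparison cells in the knockdown library, and 42.1% of members against 5.95% of comparison cells in the WT library. A knockdown member had at most 206 UMIs and a WT member at most 191. Cxcl9 stood in the knockdown library at 30.0 CPM in members against 2.37 CPM in comparison cells, and in the WT library at 77.2 CPM in members against 4.33 CPM in comparison cells. Only 6 of 102 knockdown and 9 of 114 WT members had a Cxcl9 UMI, and 1 cell carried 59.2% of the knockdown and 56.5% of the WT UMIs. The level of Cxcl11 was 99.8 CPM in members against 1.08 CPM in comparison cells (knockdown library), and 115 CPM in members against 1.56 CPM in comparison cells (WT library). Cxcl11 is annotated as a polymorphic pseudogene in the reference strain. It was found in 12.7% of knockdown and 13.2% of WT members. Ccl5, a chemokine for T cells and monocytes, differed by 2.01 in knockdown and 2.98 in WT members. The monocyte attractants were at high level in members and comparison cells alike. Ccl2 had 4804 CPM in members against 3959.7 CPM in comparison cells of the knockdown library, and 3091 CPM in members against 3034 CPM in comparison cells of the WT library. Ccl12 differed by 0.50 in knockdown and 0.50 in WT members. Of 10 other inflammatory chemokines, 1 was higher in each library and 1 (knockdown) and 3 (WT) were lower. Over all measured genes 6.13% (knockdown) and 6.09% (WT) were higher and 4.67% and 4.88% lower, so 1 gene of 10 says little about the list. The higher one was Ccl4 (0.99 in knockdown and 0.62 in WT members).

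Antigen presentation divided by class. For MHC class I, 10 of 20 measured genes were higher in each library (medians 0.59 in knockdown and 0.58 in WT members), and the classical heavy chains were not among them. Tap1 reached 92.4 CPM in knockdown members against 22.1 CPM in knockdown comparison cells, and 103 CPM in WT members against 21.5 CPM in WT comparison cells. Tap1 is a subunit of the peptide transporter. Psmb9, an immunoproteasome subunit, differed by 1.23 in knockdown and 1.29 in WT members, and Nlrc5, the class I transactivator, by 1.52 in knockdown and 1.16 in WT members. The classical heavy chains H2-K1 (0.37 in knockdown and 0.12 in WT members) and H2-D1 (0.17 in knockdown and -0.06 in WT members) stayed under 1.5-fold. For MHC class II, 0 of 9 genes were higher and 2 lower in knockdown members, 1 was higher and 0 lower in WT members, and the medians, -0.13 in knockdown and 0.06 in WT members, had opposite signs. Over all measured genes 6.13% (knockdown) and 6.09% (WT) were higher and 4.67% and 4.88% lower, so a count of 0 or 1 of 9 says little about class II.

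Of checkpoint and costimulation genes, 7 of 16 measured were higher and 2 lower in knockdown members, and 8 of 18 higher and 1 lower in WT members. Over all measured genes 6.13% (knockdown) and 6.09% (WT) were higher and 4.67% and 4.88% lower. For Cd274 the knockdown library gave 119 CPM in members and 41.7 CPM in comparison cells, and the WT library 141 CPM in members and 40.4 CPM in comparison cells. Cd274 encodes PD-L1, the ligand of the T cell inhibitory receptor PD-1. Cd40 had 31.2 CPM in members against 5.63 CPM in comparison cells of the knockdown library, and 45.5 CPM in members against 5.69 CPM in comparison cells of the WT library. Cd40 is a costimulatory receptor that T cells engage. Il15 stood in the knockdown library at 55.1 CPM in members against 11.5 CPM in comparison cells, and in the WT library at 86.5 CPM in members against 12.9 CPM in comparison cells. Il15 sustains NK and memory T cells. Tnfsf10, which encodes the death ligand TRAIL, had 22.6 CPM in members against 0.773 CPM in comparison cells (knockdown library) and 24.3 CPM in members against 0.779 CPM in comparison cells (WT library). Vsir, an inhibitory checkpoint of myeloid cells, ran the other way with -0.62 in knockdown and -0.43 in WT members. Among cell death genes 7 of 19 were higher in knockdown and 8 of 19 in WT members. Xaf1, an antagonist of apoptosis inhibitors, differed by 2.26 in knockdown and 2.53 in WT members, and Mlkl, the executioner of necroptosis, differed by 1.34 in knockdown and 1.34 in WT members. The inflammasome cytokine Il1b differed by -0.44 in knockdown and -0.44 in WT members, and Il1rn, its natural antagonist, by 1.15 in knockdown and 1.04 in WT members.

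Fewer genes were lower in both libraries than higher in both, and the named ones lay nearer 0. The level of Fn1 was 848 CPM in members against 1990.5 CPM in comparison cells (knockdown library), and 1096 CPM in members against 2036 CPM in comparison cells (WT library). Fn1 encodes fibronectin, a glycoprotein of the extracellular matrix. Chil3 reached 95.5 CPM in knockdown members against 277 CPM in knockdown comparison cells, and 74.7 CPM in WT members against 189 CPM in WT comparison cells. Chil3 encodes the chitinase-like protein Ym1 of monocytes. Mcemp1 (-1.37 in knockdown and -1.01 in WT members) and the lysozyme gene Lyz1 (-0.97 in knockdown and -0.75 in WT members) were lower too, as were the uridine-cytidine kinase Uck2, the phosphatase Ptpn7, the receptor Il17ra, the aryl hydrocarbon receptor Ahr, the small nucleolar RNA partner Gar1 and the leukotriene synthase Ltc4s, whose differences ranged from -1.01 to -0.75. Of 8 markers of classical monocytes 5 were at least 1.5-fold lower and 2 higher in knockdown members (median -1.12), and 3 were lower and 2 higher in WT members (median -0.42). Over all measured genes 4.67% (knockdown) and 4.88% (WT) were lower and 6.13% and 6.09% higher. Ccr2 differed by -1.28 in knockdown and -0.44 in WT members. Vcan, a matrix proteoglycan, had 203 CPM in members against 412 CPM in comparison cells of the knockdown library. In the WT library Vcan had 245 CPM in members against 403 CPM in comparison cells. The 2 higher genes were Plac8 and Ly6c2 in each library, and Plac8 differed by 1.80 in knockdown and 2.06 in WT members.

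Genes of cholesterol synthesis were low in members of both libraries. Of 19 measured genes 9 were at least 1.5-fold lower in knockdown and 8 in WT members, beside 4.67% and 4.88% of all genes, and 0 were higher in either. The list median was -0.57 in knockdown and -0.49 in WT members, beside -0.09 and -0.10 over all genes. For Cyp51 the knockdown library gave 22 CPM in members and 61.7 CPM in comparison cells, and the WT library 30.5 CPM in members and 50 CPM in comparison cells. Idi1 had 34.9 CPM in members against 65.1 CPM in comparison cells of the knockdown library, and 18.7 CPM in members against 42.7 CPM in comparison cells of the WT library. Cyp51 and Idi1 encode a sterol demethylase and an isoprenoid isomerase of the pathway. Srebf2 stood in the knockdown library at 28.8 CPM in members against 55.3 CPM in comparison cells, and in the WT library at 27.4 CPM in members against 47.4 CPM in comparison cells. Srebf2 encodes the transcription factor that drives the pathway. Ch25h, the enzyme that makes an oxysterol inhibitor of that factor, stood higher in members (0.70 in knockdown and 0.68 in WT members), and so did the cholesterol exporter Abcg1 (0.94 in knockdown and 0.90 in WT members). Their list of oxysterol and cholesterol export genes did not move as a body. In knockdown members 3 of 10 measured genes were higher and 1 lower (median -0.03). In WT members 2 of 11 were higher and 0 lower (median 0.16).

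Lists not drawn up around interferon differed in how many genes stood apart, although Nos2 and Fcgr1 are also in the list of genes that prefer interferon gamma. Beside the counts below, 6.13% (knockdown) and 6.09% (WT) of all measured genes were higher in members, and 4.67% and 4.88% lower. Stress genes of tissue dissociation had 0 of 19 higher and 0 lower in either library, and mitochondrially encoded respiratory genes 0 of 11. Cell cycle genes, limited by the rule through Mki67 and Top2a, had 0 of 13 higher, with 3 lower in knockdown and 1 in WT members. Hypoxia and glycolysis genes had 7 of 18 higher in each library, among them Adm, the vasodilator adrenomedullin (1.45 in knockdown and 1.72 in WT members), Bnip3, a mitophagy receptor (1.11 in knockdown and 1.06 in WT members), and Ndrg1 (1.03 in knockdown and 0.93 in WT members), while Hif1a itself differed by -0.84 in knockdown and -0.55 in WT members. Inflammatory macrophage genes had 2 of 12 (knockdown) and 3 of 12 (WT) higher, and 0 (knockdown) and 1 (WT) lower. Nos2, the nitric oxide synthase, was at 1.81 in knockdown and 1.59 in WT members. Of alternative activation genes 1 of 13 was higher and 2 lower in knockdown members, and 2 of 14 were higher and 4 lower in WT members. Among 19 (knockdown) and 18 (WT) phagocytosis genes 4 and 2 were higher and 2 and 0 lower, with medians of -0.02 and 0.08. Both higher counts include the antibody receptors Fcgr1 (1.06 in knockdown and 1.47 in WT members) and Fcgr4 (1.29 in knockdown and 1.12 in WT members). Of 15 genes of lipid-associated macrophages 4 were higher and 1 lower in knockdown members, and 3 higher and 0 lower in WT members. The fatty acid binding proteins Fabp4 (1.49 in knockdown and 1.48 in WT members) and Fabp5 (1.23 in knockdown and 1.09 in WT members) were in both higher counts. Complement genes had 1 of 10 higher in each library, Cfb. In the Ly6 and Ms4a families 4 of 9 genes were higher in each. The level of Ms4a4c was 406 CPM in members against 78.3 CPM in comparison cells (knockdown library), and 323 CPM in members against 61.7 CPM in comparison cells (WT library). Ms4a4c encodes a membrane protein of the tetraspan-like MS4A family.

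**Figure D3:**
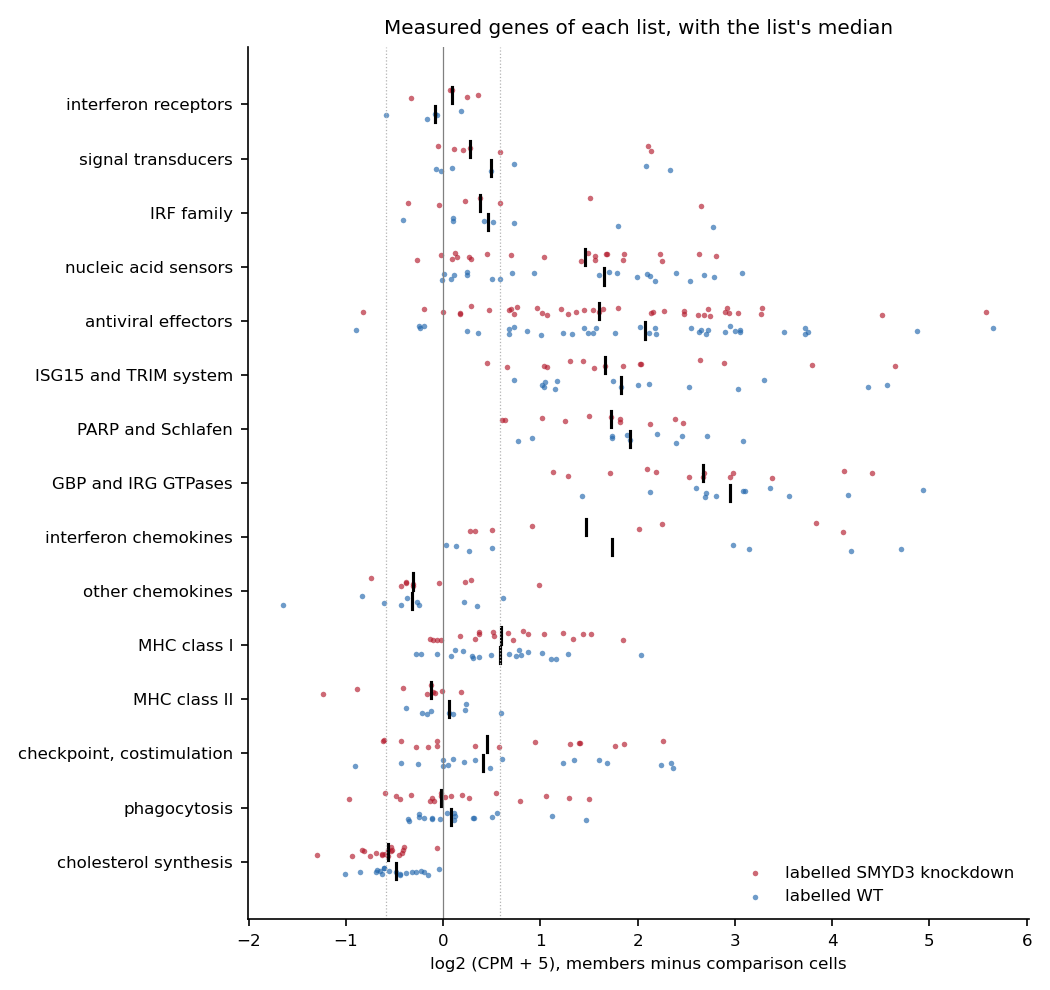
Difference of members minus comparison cells on the log2 (CPM + 5) scale (x axis) for every measured gene of 15 lists (y axis), with the knockdown library in red above the WT library in blue. Black ticks are list medians and dotted lines mark 1.5-fold. The GTPase, PARP and Schlafen, ISG15 and antiviral lists lie almost wholly right of the dotted line, the receptor and MHC class II lists straddle 0, and cholesterol synthesis lies mostly left of 0.

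Across the whole range of the 4-gene sum, genes followed different courses. Isg15 climbed steadily, at 26.2, 80.7, 204, 492 and 1780.2 CPM in knockdown cells with 0, 1 to 2, 5 to 9, 10 to 19 and 50 or more UMIs, and at 19.7, 84.4, 199, 361 and 1130.4 CPM in WT cells. Mx1 had 2.73 CPM at 0 UMIs and 482 CPM at 50 or more in the knockdown library, and 2.84 and 436 CPM in the WT library. Both genes were already higher in cells with 1 to 2 UMIs than in cells with none. Cd274 behaved otherwise: it had 42.5 CPM at 0 UMIs and 33.3 CPM at 5 to 9 in knockdown cells, then 84.5 CPM at 10 to 19 and 206 CPM at 50 or more, and in WT cells 39.6, 65.7, 118 and 177 CPM. Fn1 took its step at the other end, with 2123 CPM at 0 UMIs and 1064 CPM at 1 to 2 in knockdown cells and 2164 and 1064 CPM in WT cells. At 50 or more UMIs Fn1 had 882 CPM in knockdown and 1151 CPM in WT cells. Mmp13, a collagenase, had 1058 CPM at 50 or more UMIs against 80.8 CPM at 0 in knockdown cells, and 529 CPM at 50 or more against 65.3 CPM at 0 in WT cells. It was found in 17 of the 22 knockdown and 16 of the 39 WT cells of the uppermost range, with 27.5% of the UMIs in 1 knockdown and 32.5% in 1 WT cell. H2-K1 had 845 CPM in the uppermost and 763 CPM in the lowest range of the knockdown library, and 1183 and 944 CPM in the WT library. The share of members with a Cxcl10 UMI was 22 of 46, 21 of 34 and 16 of 22 at 10 to 19, 20 to 49 and 50 or more UMIs in the knockdown library, and 15 of 44, 17 of 31 and 30 of 39 in the WT library.

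**Figure D4:**
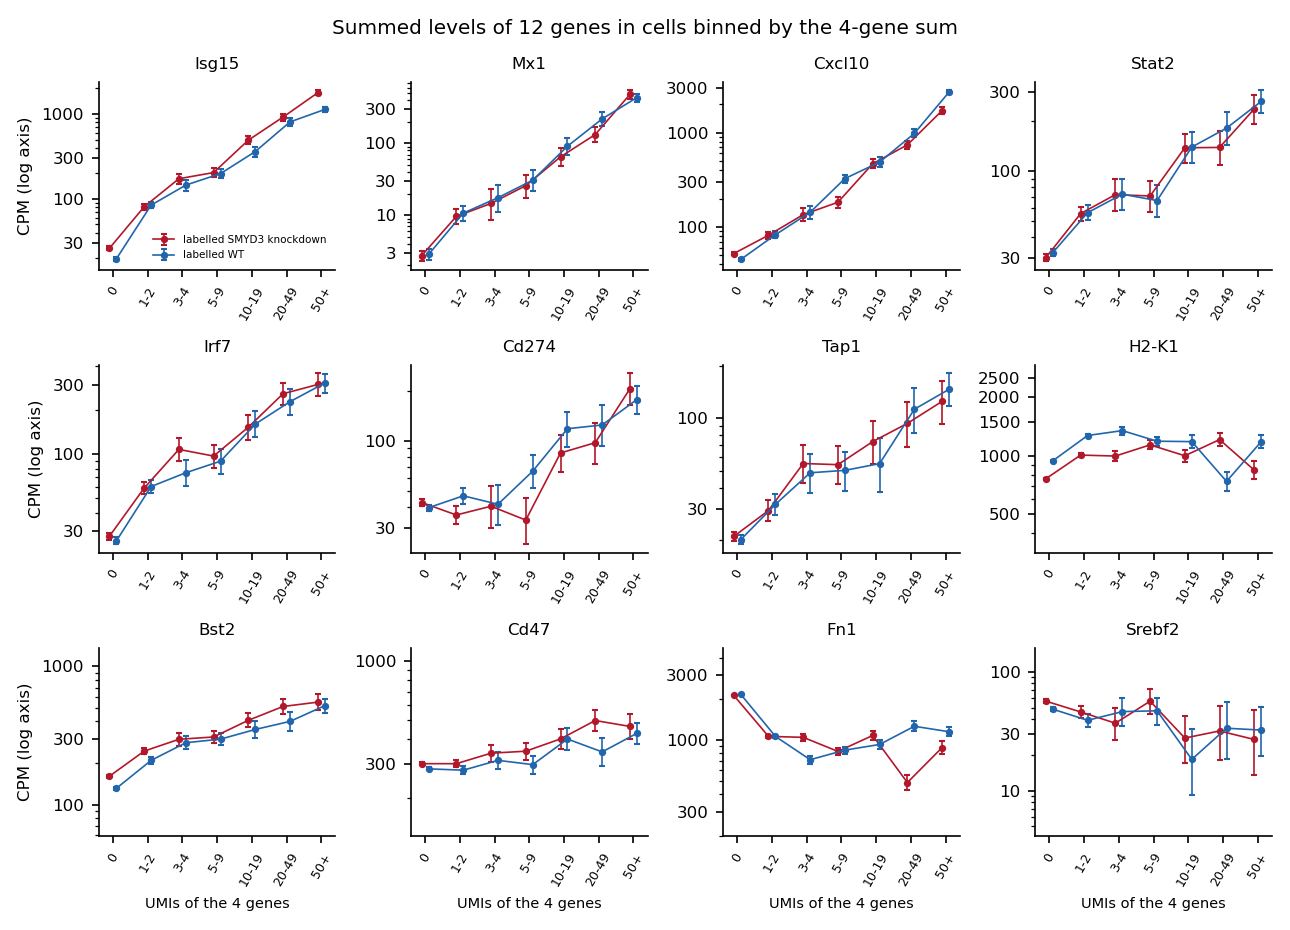
Summed level in CPM on a log axis (y axis) of 12 genes in cells binned by their UMIs of the 4 rule genes (x axis), with the knockdown library in red and the WT library in blue. Bars are 95% Poisson intervals of counting error. Isg15, Mx1 and Cxcl10 climb from bin to bin, Cd274 mainly from 10 UMIs on, H2-K1 shows no steady order, and Fn1 is lower at 1 to 2 UMIs than at 0.

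Members came from macrophage-like and monocyte-like ranges alike. Cells were divided by complement genes (C1qa, C1qb and C1qc, at least 5 UMIs) and by monocyte genes (Ly6c2, Plac8 and Vcan, at least 3 UMIs), which are limits on a range: 13 knockdown and 23 WT members had 3 to 6 UMIs of the complement genes, and 13 knockdown and 12 WT members had 2 to 3 of the monocyte genes. Members with both sets numbered 48 (47.1%) in the knockdown and 52 (45.6%) in the WT library, against 24.0% of knockdown and 27.1% of WT comparison cells. Members with complement genes alone were 30.4% in the knockdown and 35.1% in the WT library, against 46.6% and 48.8% of their comparison cells. Members with monocyte genes alone were 16.7% in the knockdown and 14.0% in the WT library, against 24.7% and 18.8% of their comparison cells, and 6 members in each library had neither. Members with both sets had a median of 18433.5 UMIs in knockdown and 16320.5 in WT members, above the medians of all members. At 3000 UMIs per cell and 1 UMI of monocyte genes, the share with both sets was 35.3% of members against 19.1% of comparison cells in the knockdown library, and 36.8% of members against 21.5% of comparison cells in the WT library. Plac8 and Ly6c2, both among the monocyte genes, were themselves at least 1.5-fold higher in members of each library, while Vcan was lower, as given above. Rsad2 was high in every class: from 1332 to 1809 CPM in knockdown members and from 949 to 2949.7 CPM in WT members. Cxcl10 had 1112 CPM in knockdown members with both sets, 274 CPM in those with complement genes alone, 956 CPM in those with monocyte genes alone and 1156 CPM in those with neither. In WT members the levels in these classes were 1510, 1309, 2020 and 76.4 CPM, and the class with neither had 6 cells in each library.

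The knockdown and WT libraries were then compared within the members. Of 7505 genes measured in members, 296 (3.94%) were at least 1.5-fold higher and 346 (4.61%) lower in knockdown than in WT members. In comparison cells 24 of 7778 (0.309%) were higher and 54 (0.694%) lower. The members' sums hold 1633710 UMIs in the knockdown and 1606050 UMIs in the WT library, far fewer than the sums of the comparison cells, and without the cell that holds most UMIs of each gene 258 genes were higher and 349 lower.

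Several lists of interferon-stimulated genes had medians slightly below 0 in knockdown against WT members, and others did not. List medians of the difference were -0.25 for antiviral effectors, -0.24 for GTPases, -0.22 for sensors and -0.36 for the PARP and Schlafen genes, beside -0.02 over all genes. In these lists 2 of 38, 0 of 13, 0 of 22 and 0 of 11 genes were at least 1.5-fold higher, against 2, 0, 2 and 1 that were lower. Over all genes measured in members the shares were 3.94% higher and 4.61% lower. The median was -0.15 for the ISG15 and TRIM genes and -0.33 for genes that prefer interferon gamma, but 0.13 for MHC class I, with 14 of 20 genes above 0, 0.02 for the interferon-induced chemokines and 0.10 for the Ly6 and Ms4a families. Rsad2 had 1614 CPM in knockdown and 2099.6 CPM in WT members, a ratio of 0.768 (0.730 to 0.809). Mx1 had 190.4 CPM in knockdown and 251 CPM in WT members, a ratio of 0.759 (0.652 to 0.882). Isg15 ran the other way, with 946 CPM in knockdown and 758 CPM in WT members (ratio 1.25, 1.16 to 1.35), and its ratio in comparison cells was 1.21. Cxcl10 had 862 CPM in knockdown and 1418 CPM in WT members, a ratio of 0.608 (0.569 to 0.650), whereas in comparison cells the ratio was 1.13. Without the top cell of each library the Cxcl10 ratio in members was 0.567. Cxcl9 had a ratio of 0.388 (0.273 to 0.545) on 6 knockdown and 9 WT cells. The WT members included more cells of 50 or more UMIs, as given above, and the part of that in these ratios was not tested.

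**Figure D5:**
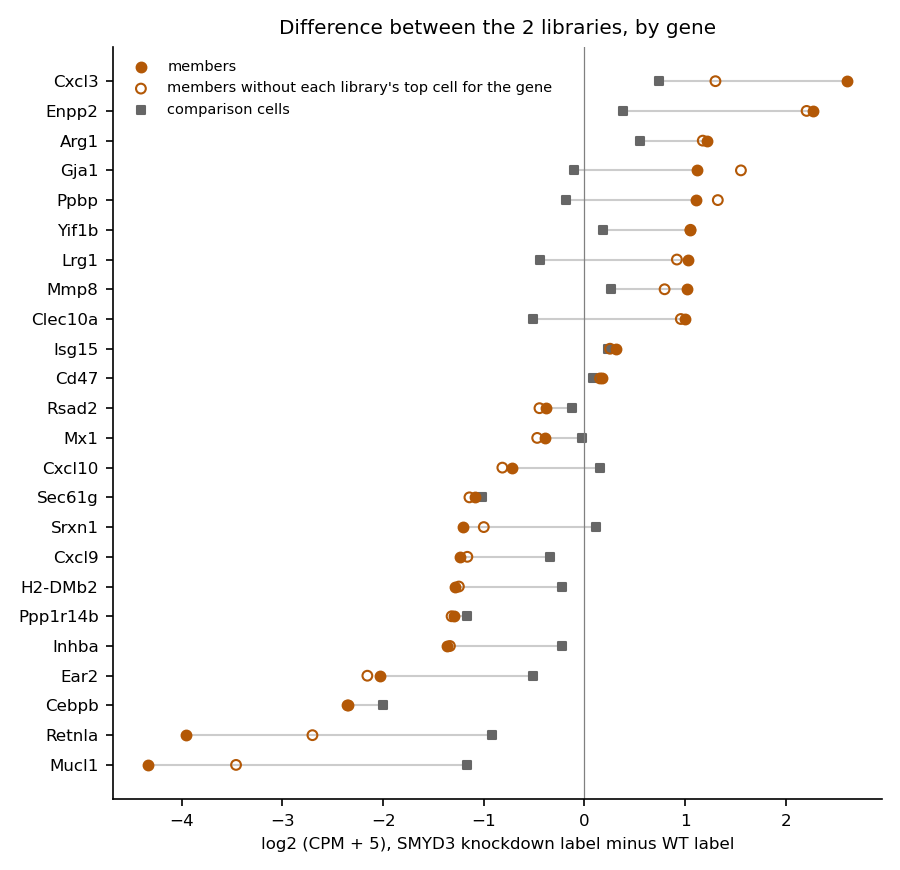
Difference of the library labelled SMYD3 knockdown minus the library labelled WT on the log2 (CPM + 5) scale (x axis) for 24 genes (y axis), in members (filled circles), in members without the cell holding most UMIs of the gene in each library (open circles) and in comparison cells (grey squares). Cebpb, Ppp1r14b and Sec61g lie far left in members and comparison cells alike, and Cxcl3 lies far nearer 0 when the top cell is left out.

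Several of the genes with the largest excess in knockdown members were carried by few cells. Cxcl3, a neutrophil-attracting chemokine, had 193 CPM in knockdown and 27.4 CPM in WT members, but 1 cell held 68.3% of the knockdown UMIs and the ratio of 7.04 was 2.80 without the top cells. Enpp2, the lysophospholipase autotaxin, had 85.1 CPM in knockdown and 13.7 CPM in WT members, from 9 knockdown and 6 WT cells. Arg1, the arginine-degrading enzyme, was less confined, with 1363 CPM in 55.9% of knockdown members and 582 CPM in 57.0% of WT members, a ratio of 2.34 (2.17 to 2.53) beside 1.47 in comparison cells. Clec10a, a lectin of dendritic cells and macrophages, had 394 CPM in knockdown and 194 CPM in WT members (ratio 2.03), against a ratio of 0.696 in comparison cells, so the direction was opposite in the 2 populations. Yif1b, a protein of the Golgi membrane, had a ratio of 2.26 (1.59 to 3.25) with UMIs in 60 knockdown and 37 WT members. Gja1, Ppbp, Lrg1 and Mmp8 had ratios from 2.14 to 2.42 in members, beside 0.921, 0.846, 0.712 and 1.21 in comparison cells. For Ppbp 1 cell held 51.8% of the knockdown and 1 cell 65.2% of the WT UMIs. Neutrophil transcripts were higher in the knockdown library in both populations. A list of 8 neutrophil markers summed to 343 CPM in knockdown and 90.3 CPM in WT members, against 302 CPM in knockdown and 183 CPM in WT comparison cells. In all, 6 knockdown members and 1 WT member had at least 20 UMIs of it, Ly6g was at 0 in both, and the 5 neutrophil markers measured in members were all at least 1.5-fold higher in knockdown members. The part of neutrophil transcripts in these ratios was not tested.

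Lower in knockdown members were, first, genes at 0 there. Mucl1, a small mucin-like secreted protein, had 0 UMIs in knockdown members and 154 UMIs in 11 WT members, at least 52.2-fold lower against a floor of 3 counts over the knockdown members. Retnla, a resistin-like protein of alternatively activated macrophages, had 0 UMIs in knockdown members and 117 UMIs in 5 WT members, at least 39.7-fold lower on the same floor. The same WT member held 74 of the Mucl1 and 73 of the Retnla UMIs, and another WT member held 41 of the Retnla UMIs. Both bounds thus rest on few cells and cover counting error alone. In comparison cells the ratio was 0.424 for Mucl1 and 0.468 for Retnla. Cebpb, a transcription factor of myeloid cells, had 205 CPM in 79.4% of knockdown members and 1068 CPM in 97.4% of WT members, a ratio of 0.192 (0.170 to 0.216). The same held for comparison cells, with 254 CPM in the knockdown and 1032 CPM in the WT library (ratio 0.246). Ppp1r14b, a phosphatase inhibitor (ratio 0.399, against 0.441 in comparison cells), and Sec61g, a subunit of the protein translocon (0.445, against 0.470), also differed alike in both populations. Ear2, a ribonuclease of eosinophils and monocytes, had a ratio of 0.214 (0.151 to 0.298) beside 0.692 in comparison cells, Inhba, the activin subunit, 0.366 beside 0.848, H2-DMb2, a class II peptide exchanger, 0.354 beside 0.844, and Srxn1, an antioxidant enzyme, 0.382 beside 1.10. Genes of the exocrine pancreas separated the libraries throughout: 89 knockdown members (87.3%) and 1 WT member (0.9%) had at least 3 UMIs of them, against 74.7% of knockdown and 2.1% of WT comparison cells.

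The title of the series names CD47, the signal by which a cell resists being engulfed, and the lipid regulator SREBP1. Cd47 had 447 CPM in knockdown members against 300.0 CPM in comparison cells of that library, and 397 CPM in WT members against 282 CPM in comparison cells. The differences of 0.57 in knockdown and 0.49 in WT members were under 1.5-fold, and with median-ratio scaling they were 0.67 in knockdown and 0.60 in WT members, just over it. Between the labels the ratio was 1.13 (1.01 to 1.26) in members and 1.06 in comparison cells. Sirpa, the receptor for CD47 on macrophages, had 354 CPM in knockdown and 351 CPM in WT members, a ratio of 1.01 (0.896 to 1.13). Srebf1 had 37 UMIs in knockdown and 26 in WT members, a ratio of 1.40 (0.825 to 2.41), and Smyd3 a ratio of 0.983 (0.294 to 3.28), intervals too wide at this depth to show a difference. Csf1r, by which the cells were chosen, had 272 CPM in knockdown and 309 CPM in WT members.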

How the data were processed

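Single-cell RNA libraries of CD45-sorted cells, 1 per label, were analysed from the deposited filtered matrix of UMI counts, made with Cell Ranger 7.1.0 per the file headers and on mm10 per the submitters' processing notes. The sources used here do not name its annotation release. Of its 55357 genes, 52081 (94.1%) are in GENCODE vM21, which gave coordinates. Barcodes were assigned to libraries by their suffix.

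Members and comparison cells were chosen by the limits given above, and their UMIs were summed per library. Genes with 20 UMIs and 10 CPM in either group were compared on log2 of CPM plus 5, with 1.5-fold as the limit. With 1 library per label no test was run. Intervals are exact Poisson for sums, Clopper-Pearson for shares, conditional binomial for ratios and Newcombe for the difference in shares, all at 95%. PCR duplicates are removed by UMIs, but the cells of a library are not replicates, so intervals cover counting error only. The members and all gene lists were chosen with earlier results of these data known.

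Genes were named by rule: the 20 largest and 10 smallest differences, ranked by the library nearer to 0, and between labels the 10 largest and 10 smallest past 1.5-fold, with at least 30 UMIs and 50 CPM in the higher group. Rsad2, Ifit1, Ifit2, Ifit3, Mx1, Csf1r, Smyd3, Srebf1, Cd47, Sirpa and Cebpb were always named, and mitochondrial, ribosomal, haemoglobin, immunoglobulin, T cell receptor, sex-linked and other cell types' marker genes were left out. Some genes that the rule or a list names are not reported here. Mmp13 was named after its values were seen.

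Doublets were scored with Scrublet (scanpy 1.11.5). Its own threshold marked 2 cells in the knockdown and 0 in the WT library and so did not work, and the highest scores, 0.8% per 1000 cells (723 and 603 cells), were used in an alternative. Promoters come from RefSeq on GRCm38.p6. For 21 of 23 genes the bases after the start occur in a GENCODE vM21 transcript of the gene. The script was tested on simulated counts. Python 3.11.15, numpy 2.4.6, scipy 1.17.1, pandas 2.3.3 and matplotlib 3.10.9 were used. Alternatives changed the UMI limits, the comparison cells, scaling, filter, pseudocount, doublets and depth.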

Additional observations from a re-analysis of the deposited data

How the results depend on the processing

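No paired analysis was possible because each label has 1 library. The share of members depended on the limit: at 5 UMIs of the 4 genes it was 3.74% (knockdown) and 3.78% (WT), at 20 UMIs 1.17% and 1.40%, and with the limit scaled to each cell's depth 1.63% in the knockdown library. The difference in share kept its sign in all settings tried (-0.384 to -0.0228 points). Counts of genes higher in members left the range of 1.5 times only under a filter of 100 UMIs and 50 CPM, with 223 higher and 117 lower (knockdown) and 245 and 109 (WT). Counts of lower genes were less stable: 634 (knockdown) and 629 (WT) with comparison cells free of the mitochondrial and proliferation limits, 602 and 657 with a pseudocount of 1 CPM, 991 and 929 with members at 20 UMIs, and 1229 and 1195 with every cell thinned to 3000 UMIs. The lower count was 229 in the WT library with median-ratio scaling and 620 in the knockdown library without the highest doublet scores. Between labels, 48 genes were higher and 82 lower in knockdown members under the stricter filter, 594 and 628 without a filter, 531 lower with a pseudocount of 1 CPM and 181 higher after thinning. Fewer genes entered under the stricter filter and fewer UMIs after the thinning, and the causes of all these shifts were not tested. Cxcl3 between labels turned to -0.90 with members at 20 UMIs. Of 2010 values of genes and lists under alternatives, 1714 moved little, 295 moved further and 1 reversed. In 2 alternatives chosen after seeing the data, leaving out cells with transcripts of other cell types gave 409 higher and 421 lower (knockdown), 476 and 389 (WT) and 235 and 433 (between labels), and leaving out each gene's top cell gave 258 and 349 between labels. Genes under about 30 UMIs in members are too shallow to compare between labels.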
